A study of Mus musculus with 4 samples.

Results

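IAP (intracisternal A particle) elements are mouse retrotransposons of the ERVK class, and the elements described here are those other than the IAPEY group. They were taken as the transposable element (TE) copies whose repeat name starts with IAP, leaving out names that start with IAPEY or IAPEy, which gave 15 of 1072 repeat names and 21096 of 3658072 listed copies. Of the 21096 IAP copies, 3398 had a count in any library, 863 had at least 5 counts over the 4 libraries and 45 had at least 100. The names fall into 6 internal parts, which are the body of the element, and 9 long terminal repeats (LTRs), which flank it and carry its promoter.

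RNA-seq of poly(A) RNA was compared between G3 Terc-/- embryonic stem cells (ESCs), which lack the telomerase RNA gene Terc, and wild-type (WT) ESCs. Both genotypes were of strain C57BL/6 and were cultured with LIF and serum on feeder cells, with 2 libraries per genotype. Each genotype was 1 ESC line, N12 for WT and F35 for Terc-/-, so that genotype and line cannot be told apart, and p-values measure only the spread between libraries of a line. The comparison addresses whether retrotransposon RNA differs in ESCs whose telomeres have shortened over generations without telomerase.

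IAP elements are among the youngest mouse retrovirus-like elements and some copies can still move in the genome. In ESCs they are held silent by histone H3K9 methylation, which KRAB zinc finger proteins direct to the element through TRIM28 and SETDB1, and in differentiated cells mainly by DNA methylation. An IAP that escapes silencing can drive a neighbouring gene from its LTR, as in the agouti viable yellow and Axin1 fused alleles. The counts list each copy by its repeat name and a running number without a genome position, so neither neighbouring genes nor copy sequences were analysed here.

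Gene counts lay between 18047995 and 22520017 per library and TE counts between 1805047 and 2104586. Terc itself was counted 7 and 2 times in WT libraries and 0 times in both Terc-/- libraries, and a count of 0 leaves room for up to 3. All 11 pluripotency markers examined were detected, with summed levels of 6416 and 6530 counts per 1000000 gene counts (CPM) in WT and 7967 and 8308 in Terc-/- libraries. Markers of the feeder fibroblasts were also present, and 7 of 17 tested were higher in Terc-/- libraries and 0 lower at a Benjamini-Hochberg adjusted p under 0.05 in edgeR's quasi-likelihood test, which gives every adjusted p below, where 21.7% and 21.8% of all genes were called higher and lower. Their summed level was 283 and 192 CPM in the WT libraries and 338 and 235 CPM in the Terc-/- libraries. Among the other lists, trophectoderm markers had 1 (16.7%) higher and 4 (66.7%) lower of 6 tested (summed 326 and 318 CPM in WT, 200.3 and 199 in Terc-/-). Primitive endoderm markers had 1 (12.5%) higher and 3 (37.5%) lower of 8, and the pluripotency markers 9 (81.8%) higher and 2 (18.2%) lower of 11. No listed marker was at 0 in every library.

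IAP RNA was a small part of the TE counts in both genotypes. The 15 names together took 7818 and 8198 counts of the WT libraries and 8937 and 7995 of the Terc-/- libraries, which was 0.380% and 0.390% of TE counts in WT and 0.433% and 0.443% in Terc-/-. Both Terc-/- libraries lay above both WT libraries. Scaled by edgeR's TMM factors to CPM of the TE counts, the IAP sum reached 3916 ± 65.3 for WT and 4303 ± 97.1 for Terc-/- (SD, n = 2 libraries each). The difference was a fold of 1.10 (log2 fold change 0.13, SE 0.03, adjusted p = 0.0115 by edgeR). It lay under the 1.5-fold cutoff that the study applied to TE classes. The study counted reads aligned to TE consensus sequences for that, and here copy counts were summed, so the measures differ. The adjusted p was 0.111 without the first WT library and 0.0507 with the replicate number as a block. The exact permutation test of the share of TE counts gave p = 0.333 (two-sided), the smallest value that 2 against 2 libraries allow. In bulk RNA, more cells with IAP RNA and more IAP RNA per cell cannot be told apart. Within each genotype the library with the higher feeder signal had the lower IAP CPM, and the part of feeder cells in the IAP difference was not tested.

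A few names and copies made up most of the IAP counts. IAPEz-int, the internal part of the IAPEz group, held 55.5% of them, IAP1-MM_I-int held 14.5% and IAPLTR1_Mm held 7.60%. Over all names, 53 copies held 50% of the IAP counts, and the copy with the most counts, IAP1-MM_I-int---411, held 7.27%. Names differ in length and in the number of copies, so that a higher count of one name than of another is not a higher level per element.

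**Figure D1:**
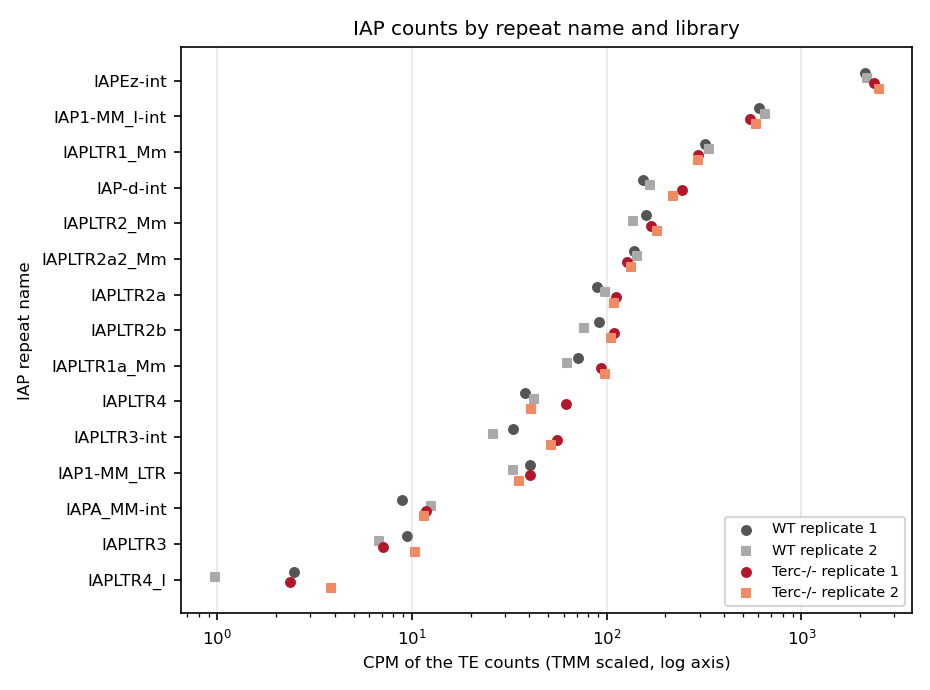
CPM of the TE counts (horizontal log axis) of each of the 15 IAP repeat names (vertical axis) in the 2 WT and the 2 Terc-/- libraries, 1 point per library. IAPEz-int was highest, at 2111 to 2496 CPM, and in 7 of the 14 names tested both Terc-/- libraries lay above both WT libraries.

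Among the internal parts, the 3 names whose difference passed an adjusted p of 0.05 in edgeR were all higher in Terc-/-. IAPEz-int had 4265 and 4490 counts in WT and 4982 and 4565 in Terc-/- libraries, or 2140 ± 41.7 and 2428 ± 96.0 CPM (SD, n = 2 each). The genotypes did not overlap in CPM, and the log2 fold change was 0.18 (SE 0.04, adjusted p = 0.00632 by edgeR). IAP-d-int had 311 and 344 counts in WT and 516 and 398 in Terc-/- libraries, a log2 fold change of 0.53 (SE 0.10, adjusted p = 0.00309 by edgeR). Both Terc-/- libraries were again above both WT libraries, though the fold of 1.45 stayed under 1.5.

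IAPLTR3-int, an internal part with few counts, had the largest fold change of the 14 names tested. It had 67 and 54 counts in WT and 117 and 95 in Terc-/- libraries, a fold of 1.82 (log2 fold change 0.86, SE 0.18, adjusted p = 0.00564 by edgeR). This was the only IAP name past a fold of 1.5 and an unadjusted P of 0.05, and its most abundant copy, IAPLTR3-int---1732, held 29.4% of its counts. Leaving that copy out gave a log2 fold change of 0.57, with an adjusted p of 0.0893 in edgeR.

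IAP1-MM_I-int lay on the other side of 0. It had 1220 and 1349 counts in WT and 1154 and 1065 in Terc-/- libraries, which after scaling was lower in both Terc-/- libraries (628 ± 34.01 against 564 ± 25.2 CPM, SD, n = 2 each). The log2 fold change of -0.16 (SE 0.06) did not pass, with an adjusted p of 0.0941 in edgeR. IAPA_MM-int (18 and 26 counts in WT, 25 and 21 in Terc-/-) overlapped between genotypes, and IAPLTR4_I (5 and 2 counts in WT, 5 and 7 in Terc-/-) had too few counts to be tested.

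Of the 9 LTR names, 1 passed an adjusted p of 0.05. IAPLTR1a_Mm had 144 and 129 counts in WT and 196 and 179 in Terc-/- libraries, with no overlap between genotypes and a log2 fold change of 0.51 (SE 0.13, adjusted p = 0.0138 by edgeR). That call was lost in DESeq2 (0.52, adjusted p = 0.0626) and, in edgeR, without the second WT library (0.42, adjusted p = 0.0707). Its close relative IAPLTR1_Mm, at 646 and 695 WT counts and 622 and 541 Terc-/- counts, had a log2 fold change of -0.15 (SE 0.07, adjusted p = 0.158 by edgeR). These LTRs of 1 group thus had values on opposite sides of 0, and the difference between them was not tested.

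The 4 names of the IAPLTR2 group were less apart. IAPLTR2b (185 and 158 counts in WT, 230 and 193 in Terc-/-) had a log2 fold change of 0.35 ± 0.12 (SE), and IAPLTR2_Mm (321 and 283, then 355 and 330) and IAPLTR2a (181 and 202, then 236 and 199) each had 0.24 ± 0.11. All 3 lay above WT in both Terc-/- libraries after scaling, but their adjusted p of 0.0618 to 0.149 in edgeR did not pass. IAPLTR2a2_Mm had 278 and 297 counts in WT and 269 and 243 in Terc-/- libraries, a log2 fold change of -0.11 ± 0.10 that turned to 0.091 without its most abundant copy.

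The other LTR names overlapped between genotypes. IAPLTR4 had 77 and 87 counts in WT and 130 and 75 in Terc-/- libraries, so that its log2 fold change of 0.37 rested on 1 library: it was 0.03 without the first Terc-/- library and 0.62 without the second. IAP1-MM_LTR (81 and 68 counts in WT, 85 and 65 in Terc-/-) and IAPLTR3 (19 and 14, then 15 and 19) had log2 fold changes of 0.06 and 0.10, both below their SE of 0.18 and 0.39 and both of either sign when a library was left out.

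Of the 14 names tested, 11 had a positive and 3 a negative log2 fold change, with a median of 0.21, against a median of -0.0046 over all 917 repeat names. At the study's cutoffs for TE classes, applied here to summed copy counts, 1 name was higher and 0 lower, where 5.13% and 2.94% of all names were called. The count of 0 lower was also 0 in DESeq2, and 1 name was lower at an unadjusted p under 0.05 at any size. By adjusted p alone in edgeR, 4 names were higher and 0 lower, where 13.2% and 11.6% of all names passed. Both Terc-/- libraries lay above both WT libraries for 7 names (29.3% of all names) and below them for 3 (31.3% of all names).

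The internal names summed had a log2 fold change of 0.15 (SE 0.03, adjusted p = 0.00962) and the LTR names summed of 0.10 (SE 0.04, adjusted p = 0.124), both by edgeR. Without the first WT library the internal sum had 0.12 and an adjusted p of 0.130 in edgeR, so that it did not pass either. The log2 ratio of internal to LTR counts was 1.61 and 1.696 in WT and 1.67 and 1.74 in Terc-/- libraries, which overlapped (difference 0.05, exact permutation p = 0.667, two-sided).

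**Figure D2:**
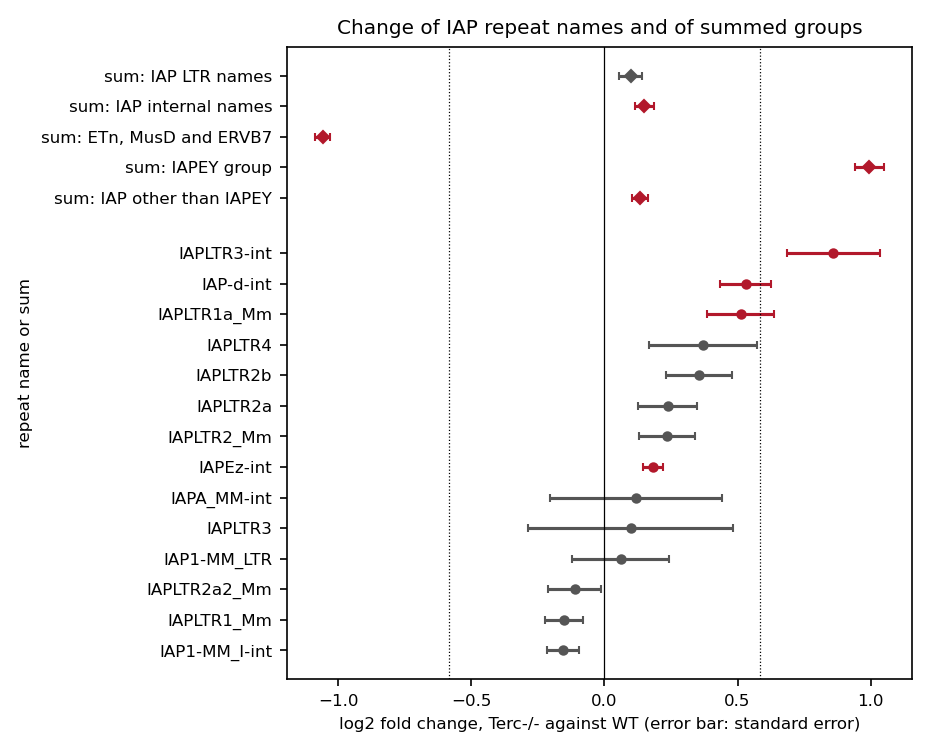
Log2 fold change of Terc-/- against WT (horizontal axis, error bars standard errors from edgeR's fit) for the 14 IAP names tested and for summed groups. Red marks an adjusted p under 0.05, and the dotted lines mark a fold of 1.5 either way. The IAP sum lies at 0.13, between the ETn sum at -1.06 and the IAPEY sum at 1.00.

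The elements most like IAP had larger fold changes than the IAP sum. The 10 IAPEY names summed had 748 and 746 counts in WT and 1539 and 1333 in Terc-/- libraries (log2 fold change 1.00, SE 0.05, adjusted p = 2.82e-06 by edgeR), of which IAPEy-int alone rose from 21 and 13 to 360 and 345 counts. The ETn, MusD and ERVB7 names, a related ERVK group, summed to 49613 and 52300 counts in WT and 24684 and 22411 in Terc-/- libraries (log2 fold change -1.06, SE 0.03, adjusted p = 2.12e-08 by edgeR). The log2 ratio of IAP to IAPEY counts was 3.39 and 3.46 in WT and 2.54 and 2.58 in Terc-/- libraries, a difference of -0.86. The log2 ratio of IAP to ETn counts was -2.67 in both WT libraries and -1.47 and -1.49 in Terc-/- libraries, a difference of 1.19. In neither ratio did the genotypes overlap, and both exact permutation tests (two-sided) gave the smallest possible p of 0.333.

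The rise of the IAP sum was largest in copies with few counts each. The 3398 copies with a count were grouped by their counts over the 4 libraries, a grouping chosen after seeing the data and given as a description without a test. A copy could enter a class through the counts of 1 genotype alone, most easily in the lowest class, and such copies were not separated. The 2535 copies with 1 to 4 counts summed to 464 and 448 CPM in WT and to 654 and 693 CPM in Terc-/- libraries, a ratio of 1.48. The 653 copies with 5 to 19 counts summed to 595 and 602 CPM in WT and to 770 and 822 CPM in Terc-/- libraries, a ratio of 1.33. In both classes the Terc-/- libraries lay well above the WT libraries, whose spread was small.

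The summed levels of the more abundant copies stood closer to WT. The 165 copies with 20 to 99 counts summed to 833 and 863 CPM in WT and to 920 and 938 CPM in Terc-/- libraries, a ratio of 1.10. The 45 copies with 100 counts or more summed to 1978 and 2050 CPM in WT and to 1889 and 1919 CPM in Terc-/- libraries, a ratio of 0.945. Each sum nets copies that rose against copies that fell. Of these 45 copies, 5 were higher and 6 lower at a fold of 2 and an unadjusted P of 0.05. The ratios of the 4 classes thus ran down from low to high counts as sums, which is not a statement on each copy. For all TE copies the log2 ratios of the same classes were 0.05, -0.03, -0.03 and -0.08, against 0.56, 0.41, 0.13 and -0.08 for IAP.

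Split at 20 counts, the 3188 IAP copies below it rose from 1054 ± 6.72 CPM to 1470 ± 64.3 CPM (SD, n = 2 each), a gain of 416 CPM. The 210 copies at or above it went from 2862 ± 72.0 to 2833 ± 32.8 CPM, within the spread of the libraries. That sum nets opposite shifts. The class of 20 to 99 counts lay above WT in both Terc-/- libraries, and the class of 100 or more lay below. IAPEz-int had log2 ratios of 0.60, 0.48, 0.16 and -0.05 from the lowest to the highest class. It holds 55.5% of the IAP counts, so its course is in large part that of the sums themselves. Under 20 counts, 10 of the 15 names lay above WT in both Terc-/- libraries, 0 lay below and 5 overlapped. Of the 13 names with copies at 20 counts or more, 6 lay above, 3 below and 4 overlapped. The shares of all repeat names split in this way were not computed, and unsplit they were 29.3% above and 31.3% below. IAPLTR1_Mm, whose sum was below WT, had a log2 ratio of 0.26 in its copies under 20 counts and -0.34 in the others.

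**Figure D3:**
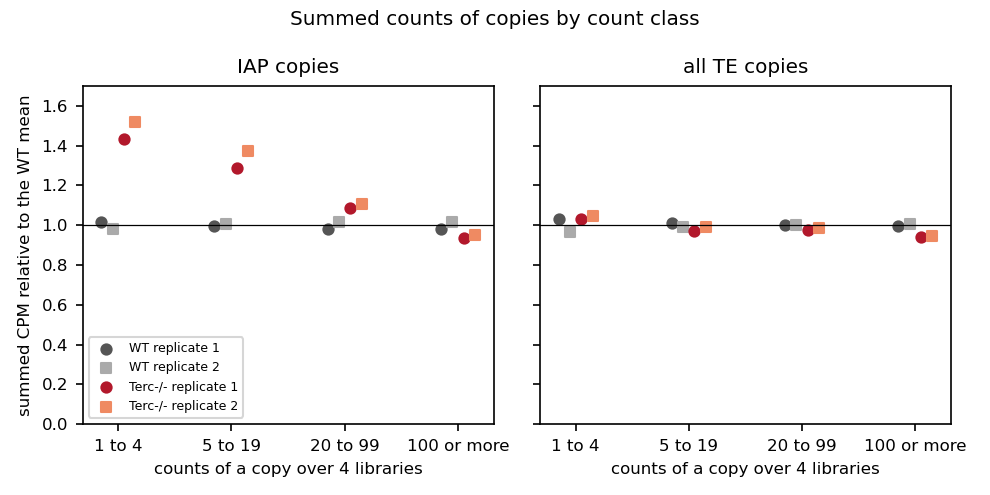
Summed CPM of IAP copies (left) and of all TE copies (right), relative to the WT mean of each class (vertical axis), by the counts of a copy over the 4 libraries (horizontal axis), 1 point per library. The Terc-/- points of IAP copies stand above 1 in the 2 lowest classes, with ratios of 1.48 and 1.33, and just below it at 100 counts or more, with a ratio of 0.945. For all TE copies the log2 ratios of the classes lie between -0.08 and 0.05.

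Single IAP copies went both ways. Of the 863 copies with at least 5 counts, 63 (7.30%) were higher and 28 (3.24%) lower in Terc-/- libraries at a fold of 2 and an unadjusted P of 0.05, where 4.7% and 3.87% of all 176114 copies were called. By adjusted p in edgeR, 8 were higher and 12 lower, where 0.634% and 0.366% of all copies were called. With DESeq2 in place of edgeR, 25 were higher and 15 lower, and when a library was left out the count of higher copies was 24 to 48. The median log2 fold change was 0.43, against 0.02 over all copies, and it was 0.19 without the first Terc-/- library (-0.12 over all copies) and 0.31 without the second. It was 0.19 among copies with at least 20 counts and 0.088 among those passing filterByExpr. These copies include 41 at 0 in both WT libraries and 21 at 0 in both Terc-/- libraries, which could pass the count minimum only through the other genotype, and 20 of the former and 8 of the latter were called.

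Among the 45 copies with at least 100 counts, 5 (11.1%) were higher and 6 (13.3%) lower, with a median log2 fold change of -0.07. Of all TE copies of that abundance, 4.12% were called higher and 3.96% lower. The 63 higher copies summed to 115 CPM in WT and 466 CPM in Terc-/-, a gain of 350 CPM. The 28 lower copies summed to 338 CPM in WT and 65.9 CPM in Terc-/-, a loss of 272 CPM. Both sets were picked by their difference in these same libraries, so the direction of the gain and of the loss was fixed by that choice. The 772 copies called in neither direction went from 3244 to 3479 CPM. CPM in this paragraph were scaled over copies with at least 5 counts, so they are not on the scale of the count classes.

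By name, IAPEz-int had 34 higher and 14 lower of 483 copies tested, and IAP-d-int had 7 higher and 1 lower of 54. IAPLTR1_Mm had 6 higher and 9 lower of 78. Over all names the internal parts had 45 higher and 16 lower of 583 copies, and the LTRs 18 higher and 12 lower of 280. Against the 4.7% and 3.87% of all copies, the LTR shares of 6.43% and 4.29% and the IAPEz-int shares of 7.04% and 2.90% were not far off, and no difference between names was tested. The IAPEY group, by the same cutoffs, had 27 higher and 1 lower of 123 copies, and the ETn, MusD and ERVB7 elements 92 higher and 119 lower of 770.

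**Figure D4:**
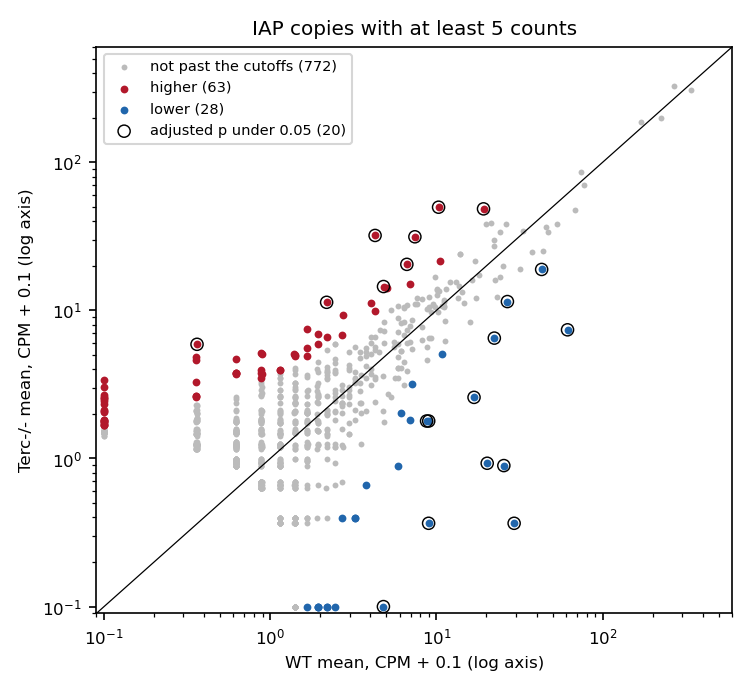
Mean CPM in Terc-/- libraries (vertical log axis) against mean CPM in WT libraries (horizontal log axis) of the 863 IAP copies with at least 5 counts, with 0.1 added to each mean. Red and blue points are the 63 higher and 28 lower copies at a fold of 2 and P of 0.05. Circles mark the 20 that also passed an adjusted p of 0.05. The 5 copies with the most counts lie close to the diagonal line of equal level.

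None of the 5 IAP copies with the most counts passed the cutoffs. IAP1-MM_I-int---411 had 611 and 687 counts in WT and 564 and 533 in Terc-/- libraries (log2 fold change -0.14), and the next running number, IAP1-MM_I-int---412, had 407 and 455, then 371 and 341 counts (-0.17). IAPEz-int---4974 had 506 and 526 counts in WT and 614 and 546 in Terc-/- libraries (0.27), and IAPEz-int---4975 had 337 and 313, then 373 and 291 counts (0.13). IAPEz-int---4763 had 146 and 137 counts in WT and 156 and 148 in Terc-/- libraries (0.21). These copies hold much of the IAP counts and differ little between genotypes, with adjusted p of 0.262 to 0.802 in edgeR.

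The largest rises among called copies with a mean of at least 20 counts were mostly of IAPEz-int. IAPEz-int---6478 had 6 and 10 counts in WT and 62 and 52 in Terc-/- libraries (log2 fold change 2.92, SE 0.36, adjusted p = 1.20e-08 by edgeR). IAPEz-int---6479, the next number, had 23 and 16 counts in WT and 87 and 89 in Terc-/- libraries (2.27, SE 0.26, adjusted p = 1.57e-09 by edgeR). Each of these rose in both libraries by far more than the replicates differed.

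IAPEz-int---4897 had 15 and 13 counts in WT and 73 and 40 in Terc-/- libraries, a log2 fold change of 2.10. IAPLTR3-int---1732 had 14 and 11 counts in WT and 43 and 30 in Terc-/- libraries, a log2 fold change of 1.64. IAPEz-int---1945 had 44 and 29 counts in WT and 80 and 91 in Terc-/- libraries, a log2 fold change of 1.33. All 3 passed an adjusted p of 0.05 in edgeR, with values from 5.95e-06 to 0.00505.

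The largest falls were copies that nearly vanished from Terc-/- libraries. IAPEz-int---1761 had 47 and 65 counts in WT and 1 and 0 in Terc-/- libraries, a ratio of WT to Terc-/- of 104 (95% exact interval 18.3 to 4153, covering counting error only). IAPEz-int---4587 had 46 and 51 counts in WT and 3 and 0 in Terc-/- libraries (ratio 30.1, interval 9.99 to 148), and IAPEz-int---6240 had 32 and 45, then 2 and 1 counts (ratio 23.9, interval 7.87 to 118). Their adjusted p in edgeR lay between 5.48e-12 and 5.86e-08. Genomic copies of the IAPs were not analysed here, so loss of a copy from the Terc-/- line and loss of its RNA cannot be told apart.

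IAPEz-int---6241, numbered next to 6240, had 106 and 129 counts in WT and 14 and 12 in Terc-/- libraries (log2 fold change -3.06, SE 0.26, adjusted p = 4.31e-14 by edgeR). IAPLTR1_Mm---211 had 38 and 47 counts in WT and 14 and 9 in Terc-/- libraries (-1.77, SE 0.36, adjusted p = 0.00126 by edgeR). In both, each Terc-/- library was below each WT library.

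Several called copies had adjacent running numbers. Of the 91 called copies, 53 had a tested copy of the same name at the next lower or higher number. For 22 of these 53 that neighbour was called in the same direction and for 0 in the opposite direction. The share over all TE copies was not computed, so these counts cannot be read as a trait of IAP elements. In IAPEz-int a neighbour called in the same direction was found for 16 of 48 called copies. Whether adjacent entries are parts of 1 inserted element was not tested, so they may not be separate members, and whether the numbers follow genome position is not given in the sources used here.

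The genes listed for IAP silencing and restriction moved in both directions. The lists also hold genes that are not silencers, such as the Tet dioxygenase genes, so the counts are not of silencers alone. Of 67 listed, 65 were tested, and 18 (27.7%) were higher and 18 (27.7%) lower at an adjusted p under 0.05 by edgeR, where 21.7% and 21.8% of all genes were called. DESeq2 called 12 higher and 17 lower, and without the second WT library edgeR called 13 and 13. At a fold of 2 as well, 3 were higher and 2 lower, where 4.43% and 3.03% of all genes were called, and the median log2 fold change was 0.0098.

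Of 16 genes of TRIM28 and H3K9 methylation, 3 (18.8%) were higher and 7 (43.8%) lower, where 21.7% and 21.8% of all genes were called. Trim28, the corepressor that KRAB zinc fingers recruit, had 1632 and 1633 CPM of the gene counts in WT and 2233 and 2105 in Terc-/- libraries (log2 fold change 0.41, adjusted p = 9.46e-10 by edgeR). Setdb1, the methyltransferase it recruits, overlapped between genotypes (183 and 189 CPM in WT, 181 and 185 in Terc-/-). Cbx3, a heterochromatin protein that binds methylated H3K9, fell from 156 and 167 CPM to 64.4 and 72.2 CPM (log2 fold change -1.24, adjusted p = 9.09e-21 by edgeR). Its relative Cbx1 fell by 0.59 on the log2 scale, and Smarcad1, a remodeller that acts with TRIM28, fell by 0.96. Cbx3 (mm10 chromosome 6, 51470154 to 51483704) and Smarcad1 (chromosome 6, 65042591 to 65116061) lie in a stretch from 45 to 80 Mb where 122 of 129 tested genes had a negative log2 fold change, with a median of -0.90, and the part of that stretch in their fall was not tested.

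The HUSH complex, which silences young retroelements with H3K9 methylation, and MORC proteins had 0 higher and 3 (60%) lower of only 5. Of all genes, 21.7% were called higher and 21.8% lower. Tasor, its core subunit, fell by 0.29 on the log2 scale, Mphosph8, its chromodomain subunit, by 0.21 and Morc3 by 0.16, while Morc2a had 0.10 and did not pass. Of 9 genes of H3.3 deposition and chromatin assembly, 0 were higher and 3 (33.3%) lower, against the same shares of all genes. Atrx, the H3.3 chaperone partner of Daxx, fell from 565 and 575 CPM to 320 and 371 CPM (log2 fold change -0.72), Chaf1b of the CAF-1 complex fell by 0.34 and H3f3b, which encodes H3.3, by 0.20. Kdm1a, a histone demethylase, had 0.09 and did not pass.

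DNA methylation genes had 2 (22.2%) higher and 3 (33.3%) lower of 9, where 21.7% and 21.8% of all genes were called. Dnmt3b, a de novo methyltransferase, fell from 514 and 523 CPM to 231 and 241 CPM (log2 fold change -1.13, adjusted p = 1.59e-22 by edgeR) and Dnmt3a, the other one, by 0.50. Their cofactor gene Dnmt3l was higher, with a log2 fold change of 0.31, as was the dioxygenase gene Tet2 with 0.46. Dnmt1, the maintenance methyltransferase, had -0.07 and did not pass (adjusted p = 0.227 in edgeR).

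KRAB zinc finger genes were the list with the most rises. Of 16 listed 14 were tested, and 10 (71.4%) were higher and 0 lower, where 21.7% and 21.8% of all genes were called. Rex2 had 30.4 and 33.3 CPM in WT and 72.8 and 74.3 in Terc-/- libraries (log2 fold change 1.21), and Zfp600 had 32.3 and 34.9, then 66.6 and 69.9 CPM (1.02). Zfp819 and Gm13051 had log2 fold changes of 0.81 and 0.67. Rex2, Zfp600 and Gm13051 belong to a cluster of near-identical genes on chromosome 4, so that the split of reads among them is uncertain. Zfp809, which recognises the primer binding site of several retroviruses, had 0.07 and did not pass.

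Of 12 genes of post-transcriptional restriction and RNA modification, 3 (25%) were higher and 2 (16.7%) lower. These shares were near the 21.7% and 21.8% of all genes. Zc3hav1, the zinc finger antiviral protein that binds CpG-rich RNA, rose from 29.7 and 29.9 CPM to 81.1 and 79.9 CPM (log2 fold change 1.43, adjusted p = 7.26e-21 by edgeR). Mov10, an RNA helicase, and Apobec3, a cytidine deaminase that restricts IAPs, had smaller rises of 0.15 and 0.16. Mettl14, a subunit of the m6A methyltransferase that marks IAP RNA, fell by 0.30.

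Of the 3 tested genes tied to an IAP by name or by a known allele, 0 were called higher and 2 lower. Of all genes, 21.7% and 21.8% were called, and 3 genes are too few to set the list apart from that. Whether these lines carry the IAP alleles of agouti and Axin1 was not examined, so the counts of those genes cannot show IAP activity. Ipp, named for an IAP promoted placental transcript, had 217 and 247 counts in WT and 147 and 132 in Terc-/- libraries (log2 fold change -0.61, SE 0.14, adjusted p = 0.000425 by edgeR). Axin1 fell by 0.23 (adjusted p = 0.00205) and Cdk5rap1 had -0.20 (adjusted p = 0.0600), both in edgeR. The agouti gene a had 0 and 1 counts in WT and 1 and 0 in Terc-/- libraries and was not tested, and Mela was not matched.

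**Figure D5:**
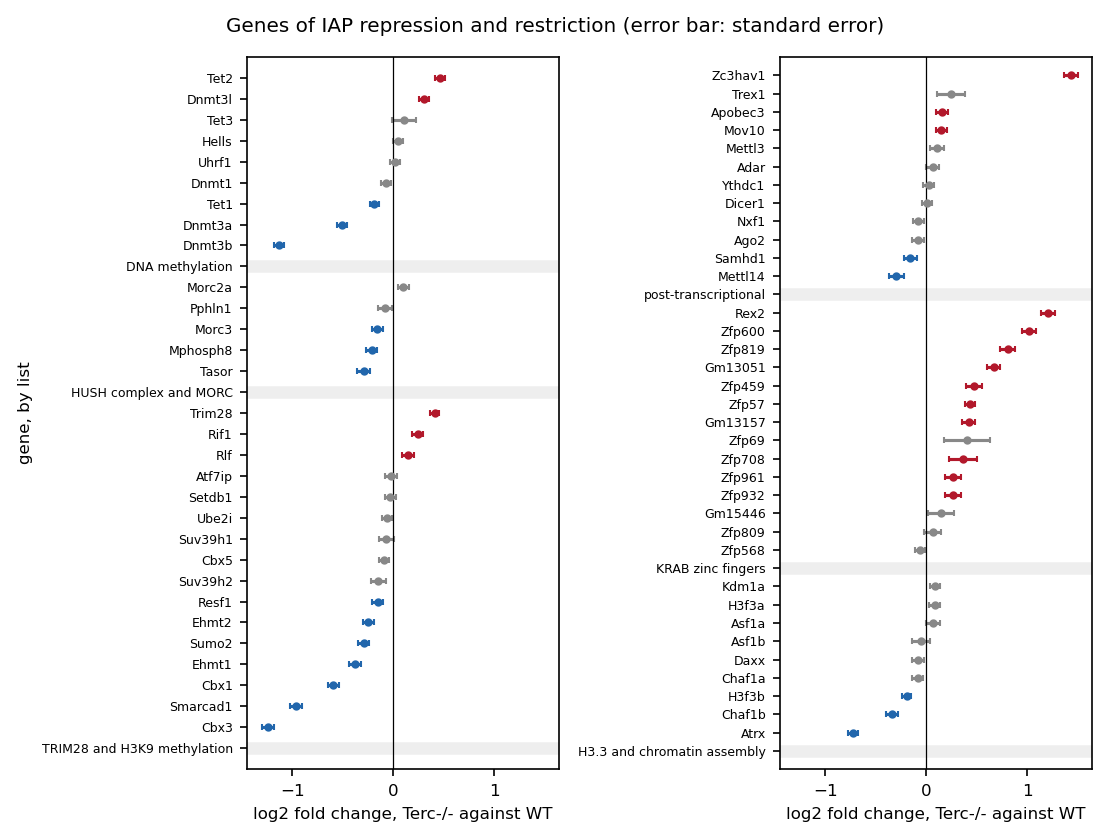
Log2 fold change of Terc-/- against WT (horizontal axis, error bars standard errors) for the 65 tested genes listed for IAP silencing and restriction. Genes are grouped by list (vertical axis). Red and blue mark adjusted p under 0.05, higher and lower. The KRAB zinc finger list has 10 of 14 genes higher and 0 lower. The lists of the HUSH complex and MORC and of H3.3 and chromatin assembly have 0 higher and 3 lower each. Of all genes, 21.7% were called higher and 21.8% lower.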

How the data were processed

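The deposited tables hold raw counts, for genes and for single TE copies, which the authors made from RNA-seq reads aligned to mm10 by STAR and did not normalize. The submitters' processing notes also name Trim Galore and featureCounts; tool versions and the strand setting are not given in the sources used here. For single TE copies the paper's methods describe an analysis of reads that map to 1 place, though without naming these tables. With such counting, reads shared by near-identical young IAP copies would be left out, from single copies and from sums alike. Of 24116 genes, 24061 were matched to a symbol.

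Copies were summed by repeat name. Fold changes were computed with edgeR 4.0.16 in R 4.3.3 (quasi-likelihood test after TMM, a genotype term alone, Benjamini-Hochberg adjustment) over all genes, all repeat names, and all copies with at least 5 counts. Genes and names were filtered with filterByExpr. CPM are counts per 1000000 TE counts, or per 1000000 gene counts for genes. SE were derived from the F statistic. For summed groups, the rows of the members were replaced by their sum. Cutoffs were a fold of 1.5 for names and of 2 for copies at an unadjusted P of 0.05, and an adjusted p of 0.05 for genes. The scripts were tested on simulated counts. Figures were drawn with matplotlib 3.10.9.

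Every IAP name was named. For copies the rule named the 5 with the most counts and, among called copies with a mean of at least 20 counts, the 5 largest rises and the 5 largest falls. For gene lists it named up to 4 genes with the smallest p and every gene tied to an IAP. Setdb1, Dnmt1 and Zfp809 were added for their role after their values were seen. The members, the lists and the tests were chosen with earlier results of these data known. The alternatives were DESeq2 1.42.0, DESeq2 size factors in edgeR, scaling by gene counts, other filters, a replicate block, adjusted p-values, the most abundant copy of each name left out, and each library left out, where the lone library is assumed to vary like the other genotype. The replicates were not 1 library counted again, with a chi-square per IAP copy of 1.45 between the WT and 1.35 between the Terc-/- libraries.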

Additional observations from a re-analysis of the deposited data

How the results depend on the processing

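The summed IAP log2 fold change stayed positive and under the cutoff in every alternative, at 0.11 to 0.21, with 0.21 under scaling by gene counts. The count of IAP names called higher, 1, became 2 under scaling by gene counts (IAP-d-int at 0.60 was added) and lay between 1 and 3 with a library left out; IAPLTR3-int was at 0.57 without its most abundant copy. Left-out libraries turned names with few counts: IAP1-MM_LTR to -0.078 without the second WT and -0.038 without the first Terc-/- library, IAPA_MM-int to -0.11 without the first WT library (0.39 without the second), and IAPLTR3 to -0.12 without the second WT and -0.18 without the second Terc-/- library (0.36 without the first). IAPLTR2a2_Mm turned to 0.091 without its most abundant copy. Copies called higher, 63, became 82 with at least 1 count, 65 under scaling by gene counts, 25 with DESeq2, 26 with at least 20 counts, 16 with filterByExpr and 8 by adjusted p, and numbered 24 to 48 with a library left out (24 without the first and 31 without the second Terc-/- library). Copies called lower, 28, became 28, 27, 15, 16, 15 and 12 in the same order, and numbered 19 to 27 with a library left out. All 25 higher and 15 lower DESeq2 calls were also edgeR calls over 4 libraries, but with a library left out only 32 of 46, 35 of 48, 17 of 24 and 26 of 31 higher calls were (WT first and second, Terc-/- first and second), and 15 of 21, 21 of 27, 17 of 19 and 20 of 27 lower calls. Silencing genes called numbered 12 to 18 higher and 13 to 20 lower over the alternatives. Copies under 20 counts had a summed log2 ratio of 0.48, which was 0.55 under scaling by gene counts and 0.43 to 0.52 with a library left out, and those with 20 or more had -0.01, which was 0.058 and -0.04 to 0.01. The cause of these changes was not tested. Same-numbered libraries did not deviate together (correlation of deviations -0.05 over names and 0.06 over genes), so the numbers do not pair them; with the replicate number as a block, 44 copies were higher and 22 lower, and the summed log2 fold change was 0.13. With 2 libraries a genotype, a copy with few counts can pass only with a large fold.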
